A study of Mus musculus with 30 samples.

Results

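The genes described here are 10 genes of mast cells: the chymase-family proteases Mcpt1, Mcpt2, Mcpt4 and Cma1, the tryptase Tpsb2, the carboxypeptidase Cpa3, the histamine-forming enzyme Hdc, the IgE receptor chains Fcer1a and Ms4a2, and the receptor Kit. They were named by their known function, with earlier results of these arrays in view, so their adjusted p-values are not independent support. Among 14 probe sets of these genes, the 1 used for each gene was chosen by its mean log2 level over the 30 arrays, which was the highest for that gene, and not by differences between genotypes. All 10 are among the 18194 genes with a probe set of their own, and 9 are among the 14548 genes that passed a filter on low levels (a mean log2 value of at least 5.33 over the 30 arrays) and were tested. Fcer1a did not pass it and is given by its values.

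The arrays measured total RNA of the small intestine of mice 2 months old, separated into villi and crypts and harvested 5 days after deletion of the genes of interest with the inducible, intestine-specific Ah-cre transgene. The genotypes were control, Rb knockout (Rb KO) and combined Rb and Myc knockout (Rb/Myc DKO, here DKO), with 5 arrays for each genotype in each tissue. The labels do not say what alleles or inducer the controls carried, and whether mast cells themselves were recombined was not tested. By their labels, DKO and Rb KO differ in the deletion of Myc.

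Mast cells are granulated cells of the immune system that settle in tissues and release their granules when antigen cross-links IgE on their surface receptor. In the mouse gut, mucosal mast cells lie in the epithelium and the lamina propria and are known for the chymases encoded by Mcpt1 and Mcpt2, whereas connective tissue mast cells of the submucosa and skin are known for Mcpt4, Cma1, Tpsb2 and Cpa3. Kit is the receptor for stem cell factor, which mast cells need for survival, and it is also carried by interstitial cells of Cajal and some epithelial cells of the crypt.

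The promoters of Mcpt1, Mcpt4, Cpa3 and Ms4a2 are shown because these genes are the ones, with Mcpt2, that moved together across the arrays. Each is the 250 bases before the transcript start as RefSeq gives them for GRCm38.p6, read 5′ to 3′ on the strand of the gene, with each GATAA or its reverse complement TTATC in capitals, the core letters bound by GATA factors, a family that mast cells use.
Mcpt1, chr14:56017714-56017963, plus strand: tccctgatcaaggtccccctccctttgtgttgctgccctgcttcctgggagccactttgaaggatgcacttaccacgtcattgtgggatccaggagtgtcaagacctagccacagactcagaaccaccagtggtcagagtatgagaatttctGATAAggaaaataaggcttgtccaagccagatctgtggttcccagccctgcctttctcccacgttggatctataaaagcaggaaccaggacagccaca
Mcpt4, chr14:56062311-56062560, minus strand: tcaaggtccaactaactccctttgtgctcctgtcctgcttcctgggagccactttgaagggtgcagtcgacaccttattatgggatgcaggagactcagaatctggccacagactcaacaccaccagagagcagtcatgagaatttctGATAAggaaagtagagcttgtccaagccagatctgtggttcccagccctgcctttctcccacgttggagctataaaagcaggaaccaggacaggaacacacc
Cpa3, chr3:20242182-20242431, minus strand: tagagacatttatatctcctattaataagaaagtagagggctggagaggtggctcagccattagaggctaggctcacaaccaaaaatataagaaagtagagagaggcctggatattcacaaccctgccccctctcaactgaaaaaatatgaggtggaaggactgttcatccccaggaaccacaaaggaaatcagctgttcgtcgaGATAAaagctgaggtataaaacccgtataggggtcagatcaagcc
Ms4a2, chr19:11623720-11623969, minus strand: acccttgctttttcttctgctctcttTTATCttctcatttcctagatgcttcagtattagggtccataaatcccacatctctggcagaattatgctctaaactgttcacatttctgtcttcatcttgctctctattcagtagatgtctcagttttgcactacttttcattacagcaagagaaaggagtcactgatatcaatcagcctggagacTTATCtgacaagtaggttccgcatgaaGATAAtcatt
The Mcpt1 and Mcpt4 promoters were identical at 213 of 250 aligned positions (85.2%) and each held 1 match, beginning 98 bases before the start in Mcpt1 and 102 in Mcpt4. All other pairs among the 8 genes with a promoter were identical at 50% to 63.6% of positions. Cpa3 held 1 match, 45 bases before the start, and Ms4a2 held 3, at 224, 37 and 10 bases before it. Of the 8 genes with a promoter, 6 held the letters on either strand, against 23% of 27025 promoters of the same length, 1 for each gene. Fcer1a and Cma1 held 1 match each, and Kit and Hdc held none. A match describes the letters in this window and says nothing of binding. Mcpt1, Mcpt2, Mcpt4 and Cma1 lie in 1 cluster of proteases on chromosome 14, which is also the chromosome of the deleted Rb1 gene.

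Rb1 was lower in Rb KO than in control arrays by 1.46 in villi (limma, adjusted p = 6.99e-06) and by 1.68 in crypts (limma, adjusted p = 2.65e-05), where all differences are in log2 units. Myc was lower in DKO than in Rb KO crypts, with a difference of -1.60 (limma, adjusted p = 1.87e-05), with 8.67 to 9.01 against 9.98 to 11.04. In villi the difference of -0.52 did not pass the threshold (limma, adjusted p = 0.147). DKO villi, at 6.49 to 6.94, lay below all Rb KO villi, at 6.98 to 7.48, but inside the control range of 6.38 to 7.89. The Myc difference was thus in the direction of the deletion but was not called in the villus arrays. Villus and crypt values come from tables that were apparently normalized apart, with array medians of 6.28 to 6.34 in villi and 6.67 to 6.73 in crypts, so levels are compared within a tissue only. Control 1 stood with the Rb KO arrays rather than with the other controls in several genes, and the values that rest on it are given with and without it. No source says that the 5 arrays of a group came from separate mice, so the p-values measure the spread between these arrays.

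Of the 10 genes, Mcpt1 and Mcpt2 had the brightest probe sets, with means of 9.39 and 9.30 over all arrays, while the 7 others that were tested lay between 5.59 and 7.34 and Fcer1a lay at 4.86. Brightness of a probe set is not a level that can be set against another gene's. The 10 genes did not vary as 1 group. Mcpt1, Mcpt2, Mcpt4, Cpa3 and Ms4a2 rose and fell together from array to array. Kit, Tpsb2, Hdc and Cma1 did not follow them in villi, and Cma1 and Tpsb2 did so in part in crypts.

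**Figure D1:**
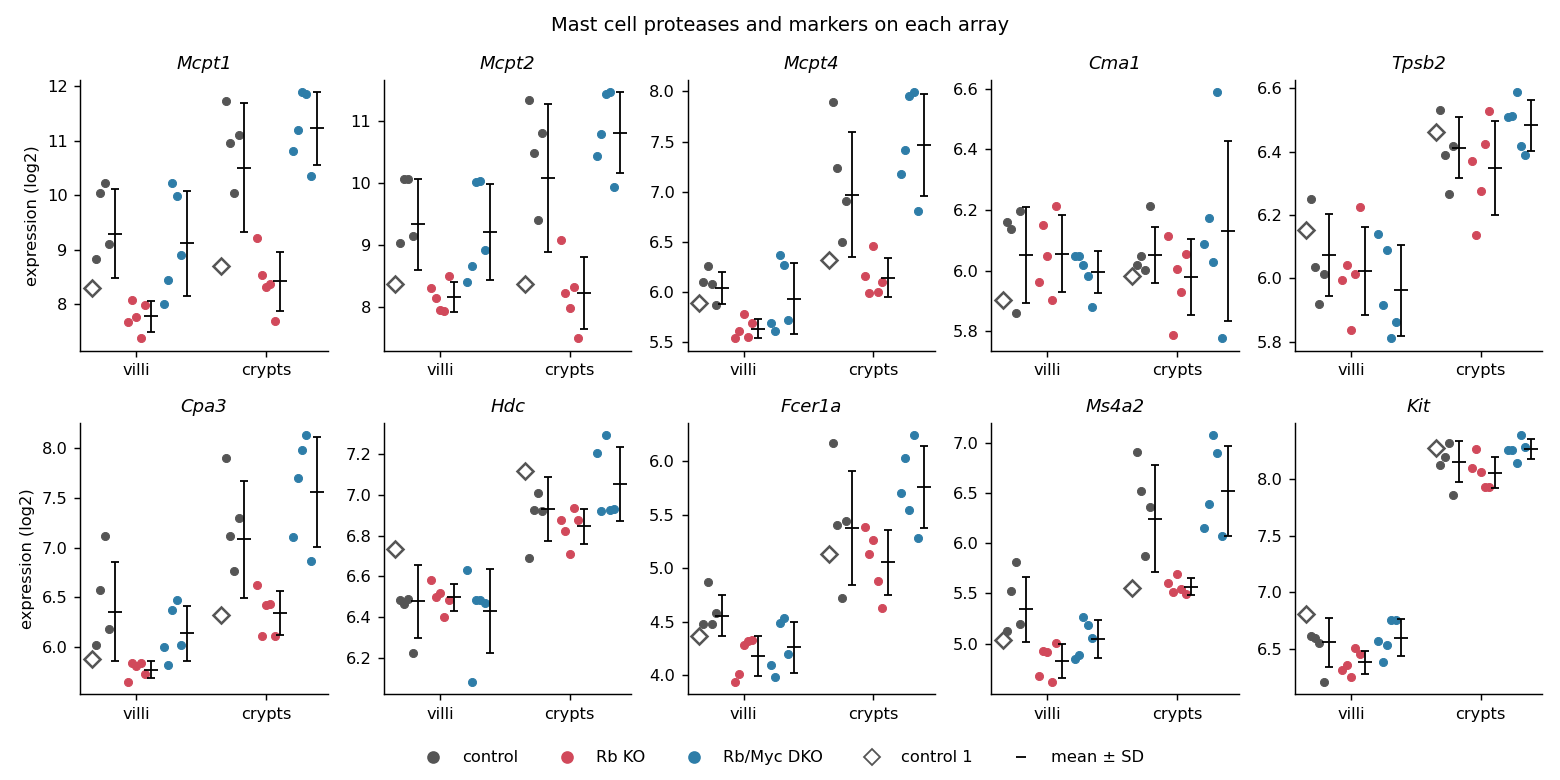
Log2 expression of the 10 genes on each of the 30 arrays (points), by genotype, in villi and crypts, with the mean and SD of each group of 5 at its right and control 1 as an open diamond. In crypts every DKO array of Mcpt1, Mcpt2, Mcpt4, Cpa3 and Ms4a2 lies above every Rb KO array, while Cma1, Tpsb2, Hdc and Kit overlap between genotypes.

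In villi, the Rb KO arrays held less RNA of the mucosal chymases. Mcpt1 read 8.29, 8.82, 10.04, 10.22 and 9.09 in controls 1 to 5. It read 7.67, 8.08, 7.76, 7.37 and 7.99 in Rb KO villi 1 to 5. It read 8.0, 8.44, 10.22, 9.99 and 8.91 in DKO villi 1 to 5. All 5 Rb KO arrays lay below all 5 controls, while the DKO arrays spanned nearly the range of the controls. Mcpt1 fell by 1.52 on the log2 scale from control to Rb KO (SE 0.42, 95% interval -2.41 to -0.63, 2.87-fold, limma, adjusted p = 0.0113). In bulk tissue, fewer mast cells and less RNA per mast cell cannot be told apart, here or in the results that follow.

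Mcpt2 is the nearest paralog of Mcpt1, and probes for the one may take up RNA of the other, so they may not be separate readings. Mcpt2 read 8.37, 9.03, 10.06, 10.06 and 9.14 in control villi 1 to 5, and 8.32, 8.15, 7.95, 7.94 and 8.50 in Rb KO villi. Control 1 lay inside the Rb KO range and the 4 other controls lay above it. The fall was 1.16 (SE 0.35, limma, adjusted p = 0.0191), and it did not pass without control 3 (adjusted p = 0.0558).

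The proteases and the receptor chain of lower signal moved the same way. Cpa3, whose enzyme trims peptides in the granule, read 5.88, 6.02, 6.57, 7.11 and 6.18 in control villi and 5.65, 5.84, 5.81, 5.84 and 5.73 in Rb KO villi, with no overlap. It fell by 0.58 (SE 0.19, limma, adjusted p = 0.0281), and the call was lost without control 3 (adjusted p = 0.0694), Rb KO 1 (0.0611) or Rb KO 5 (0.0526). Leaving out control 4, the highest array, took the fall of Cpa3 to 0.39 (adjusted p = 0.047). Mcpt4, a chymase that cleaves matrix proteins and heparin-bound substrates, read 5.89, 6.11, 6.26, 6.08 and 5.88 in control villi and 5.55, 5.61, 5.78, 5.56 and 5.69 in Rb KO villi, again apart. It fell by 0.41 (SE 0.14, limma, adjusted p = 0.0325). Its call was the least stable of the 5 to single arrays: it was lost without control 2 (adjusted p = 0.0669), 3 (0.0852) or 4 (0.0519) and without Rb KO 1 (0.0692), 2 (0.0559) or 4 (0.0681).

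Ms4a2 encodes the beta chain of the IgE receptor, which amplifies its signal, and is not a protease. It read 5.04, 5.13, 5.53, 5.82 and 5.19 in control villi and 4.68, 4.93, 4.92, 4.62 and 5.01 in Rb KO villi, so the groups did not overlap. It fell by 0.51 (SE 0.14, limma, adjusted p = 0.0101), and was called without each single array in turn. The second probe set of Ms4a2 read 5.25 to 5.77 in control villi and 4.83 to 5.35 in Rb KO villi, so by that probe set the groups overlapped. Fcer1a, the chain that binds IgE, read 4.37, 4.47, 4.87, 4.48 and 4.58 in control villi and 3.94, 4.01, 4.29, 4.31 and 4.33 in Rb KO villi, with a difference of -0.38. Its groups were apart as well, but it was below the level filter and stands outside the counts. With no filter on levels, Fcer1a was called lower in Rb KO villi (limma, adjusted p = 0.0324).

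In all, 5 of the 9 tested genes were lower in Rb KO than in control villi and none was higher, in a comparison where 30.5% of all genes were called and 15.8% were called lower. All 5 Rb KO arrays lay below all controls in 4 of the 9, against 8.81% of all genes. The median difference was -0.41 over the 9 genes and -0.02 over all genes tested. With Rb KO arrays 4 and 5 left out together, the count was 1, Ms4a2 (limma, adjusted p = 0.036), with the differences of Mcpt1 at -1.46 (0.0519) and Mcpt2 at -1.19 (0.0562). Without control 1 it was 5, with Mcpt1 at -1.77 (adjusted p = 0.00447).

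Kit, Tpsb2, Hdc and Cma1 did not pass the threshold in villi. Kit read 6.81, 6.61, 6.60, 6.55 and 6.21 in control villi and 6.32, 6.36, 6.26, 6.51 and 6.46 in Rb KO villi, a difference of -0.18 (95% interval -0.39 to 0.04, limma, adjusted p = 0.211). Without control 5, its lowest control, the difference of Kit was -0.26 (adjusted p = 0.0381). Cma1, the alpha-chymase of connective tissue mast cells, differed by 0.00 (95% interval -0.17 to 0.18). Tpsb2, a tryptase, differed by -0.05 (-0.24 to 0.13) and Hdc by 0.02 (-0.19 to 0.23). The intervals of these last 3 genes hold no fall of the size measured for Mcpt1, Mcpt2, Mcpt4, Cpa3 or Ms4a2. Their group means in villi lay between 5.96 and 6.50, and whether these probe sets could register a fall was not tested.

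In DKO villi, the means of Mcpt1, Mcpt2, Mcpt4, Cpa3 and Ms4a2 lay between those of Rb KO and control villi, and no change was called. Mcpt1 was 1.34 higher in DKO than in Rb KO villi (SE 0.42, limma, adjusted p = 0.0609) and Mcpt2 was 1.04 higher (adjusted p = 0.0814), with DKO 1 and 2 near the Rb KO arrays and DKO 3 and 4 at 9.99 to 10.22 for Mcpt1. Cpa3 read 6.0, 5.82, 6.37, 6.47 and 6.02 in DKO villi, Mcpt4 5.69, 5.62, 6.37, 6.27 and 5.73, and Ms4a2 4.84, 4.88, 5.27, 5.18 and 5.05. Their differences from Rb KO were 0.36 for Cpa3, 0.30 for Mcpt4 and 0.22 for Ms4a2 (limma, adjusted p = 0.25, 0.188 and 0.35). The count was 0 of 9, against 7.83% of all genes called. At an unadjusted p under 0.05 it was 4, Mcpt1, Mcpt2, Mcpt4 and Kit. The share of all genes at this looser rule was not counted, here or below, so such counts have no background. Mcpt1 passed without DKO 1 (adjusted p = 0.0305). DKO villi did not differ from controls in any of the 9 genes by this test, where 17.1% of all genes were called, and the nearest was Ms4a2 at -0.29 (adjusted p = 0.158, unadjusted p = 0.0491, the 1 gene of the 9 under 0.05 unadjusted). The interval for Mcpt1 between DKO and control, -1.07 to 0.71, is wide. Without control 1 the differences of DKO from control villi were -0.43 for Mcpt1, -0.37 for Mcpt2, -0.34 for Cpa3 and -0.37 for Ms4a2 (limma, adjusted p = 0.516, 0.495, 0.241 and 0.0887).

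In crypts the same 5 genes separated DKO from Rb KO arrays. Mcpt1 read 9.21, 8.52, 8.31, 8.37 and 7.70 in Rb KO crypts 1 to 5. It read 10.82, 11.20, 11.89, 11.86 and 10.35 in DKO crypts 1 to 5. The lowest DKO array lay more than 1 log2 unit above the highest Rb KO array. Mcpt1 was 2.80 higher in DKO (SE 0.47, 95% interval 1.81 to 3.79, 6.98-fold, limma, adjusted p = 0.00107). Mcpt2 read 9.08, 8.22, 7.99, 8.33 and 7.50 in Rb KO crypts and 10.43, 10.79, 11.42, 11.46 and 9.93 in DKO crypts, and rose by 2.58 (SE 0.47, 5.98-fold, adjusted p = 0.00215).

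Mcpt4 read 6.16, 5.99, 6.46, 6.0 and 6.10 in Rb KO crypts and 7.18, 7.42, 7.95, 7.99 and 6.80 in DKO crypts. The groups were apart, and it rose by 1.33 (SE 0.27, 2.51-fold, limma, adjusted p = 0.00419). Cpa3 read 6.62, 6.11, 6.43, 6.44 and 6.11 in Rb KO crypts and 7.11, 7.70, 7.99, 8.13 and 6.86 in DKO crypts, also apart, and rose by 1.22 (SE 0.27, 2.32-fold, adjusted p = 0.00772). Ms4a2 read 5.60, 5.52, 5.69, 5.54 and 5.49 in Rb KO crypts and 6.15, 6.39, 7.07, 6.90 and 6.07 in DKO crypts. The receptor chain thus rose with the proteases, by 0.95 (SE 0.23, 1.93-fold, adjusted p = 0.0122). Its second probe set read 5.39 to 5.68 in Rb KO crypts and 5.79 to 6.70 in DKO crypts, so both probe sets placed the genotypes in the same order without overlap.

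The count in crypts was 5 of 9 higher in DKO than in Rb KO and none lower, where 12.4% of all genes were called and 5.17% were called higher. In all 5 every DKO array lay above every Rb KO array, against 4.89% of all genes. The median difference was 0.95 over the 9 genes and 0.01 over all genes. The 5 calls held without each single array in turn, with adjusted p at most 0.0334. Without Rb KO 4 and 5 together Ms4a2 was at adjusted p = 0.0618. Fcer1a read 5.39, 5.13, 5.26, 4.88 and 4.62 in Rb KO crypts and 5.70, 6.03, 5.55, 6.24 and 5.29 in DKO crypts, a difference of 0.71 with overlap (limma with no filter on levels, adjusted p = 0.0661).

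**Figure D2:**
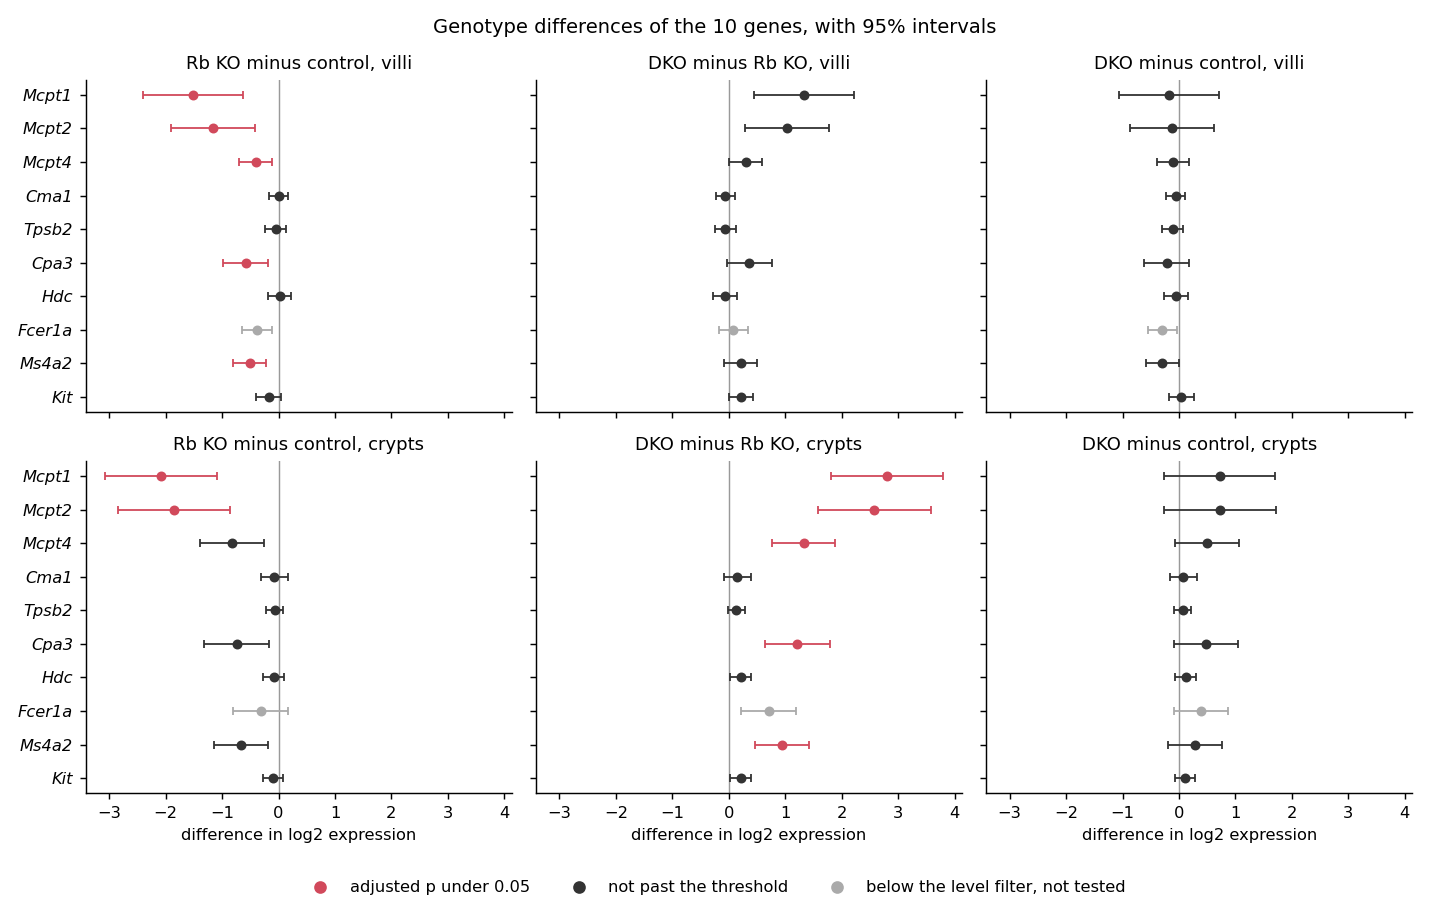
Differences in log2 expression (points) with 95% intervals (bars) for the 10 genes in the 3 genotype comparisons of each tissue, red where limma's adjusted p is under 0.05, grey for Fcer1a, which was below the level filter. Mcpt1, Mcpt2, Mcpt4, Cpa3 and Ms4a2 lie to the left of 0 for Rb KO minus control and to the right for DKO minus Rb KO, at 2.80 for Mcpt1 in crypts, and Cma1, Tpsb2, Hdc and Kit lie near 0.

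Control crypts were spread over most of the range of both mutants, and this set what could be called against them. Mcpt1 read 8.69, 11.73, 10.96, 10.04 and 11.10 in control crypts 1 to 5. Control 1 lay among the Rb KO arrays and the 4 others lay above all of them. Mcpt1 fell by 2.09 from control to Rb KO crypts (SE 0.47, limma, adjusted p = 0.00913). Mcpt2 read 8.37, 11.33, 10.48, 9.40 and 10.80 in control crypts, with the same array low, and fell by 1.85 (SE 0.47, adjusted p = 0.019). Mcpt2 did not pass without Rb KO 5 (adjusted p = 0.0502).

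The other 3 genes had a similar order of arrays in control crypts. Mcpt4 read 6.32, 7.89, 7.24, 6.50 and 6.91, Cpa3 read 6.32, 7.91, 7.12, 6.77 and 7.29, and Ms4a2 read 5.56, 6.91, 6.51, 5.87 and 6.36. Control 2 was the highest and control 1 the lowest in each. Their differences, Rb KO minus control, were -0.83 for Mcpt4 (limma, adjusted p = 0.0605), -0.74 for Cpa3 (0.0979) and -0.67 for Ms4a2 (0.0711), and none passed. The count was 2 of 9 lower, where 10.3% of all genes were called and 2.97% were called lower. In none of the 9 did all Rb KO arrays lie below all controls, as they did in 2.68% of all genes.

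Leaving out control 1 raised that count to 5. Without it Mcpt1 was at -2.54 (limma, adjusted p = 0.000464), Mcpt2 at -2.28 (0.00172), Mcpt4 at -0.99 (0.0237), Cpa3 at -0.93 (0.0283) and Ms4a2 at -0.84 (0.016). Mcpt4 also passed without control 4 (adjusted p = 0.0473), and without Rb KO 5 the count was 1. Without Rb KO 4 and 5 together the count was 0, with Mcpt1 at -1.83 (0.0738) and Mcpt2 at -1.64 (0.111). With control 1 and both of those left out, a setting chosen after seeing the data, it was 2, Mcpt1 at -2.28 (0.00555) and Mcpt2 at -2.07 (0.0145).

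DKO crypts were not called different from control crypts in any of the 9 genes, where 20.2% of all genes were called, and at an unadjusted p under 0.05 the count was 0 as well. The differences were 0.72 for Mcpt1 (95% interval -0.27 to 1.71), 0.73 for Mcpt2, 0.50 for Mcpt4, 0.48 for Cpa3 and 0.28 for Ms4a2. Without control 1, the lowest control, they were 0.27 for Mcpt1, 0.30 for Mcpt2, 0.33 for Mcpt4, 0.29 for Cpa3 and 0.10 for Ms4a2 (limma, adjusted p from 0.431 to 0.789). Without control 2, the highest control, Mcpt4 was 0.73 higher in DKO (limma, adjusted p = 0.0401). The comparisons of Rb KO with control and of DKO with Rb KO share the Rb KO arrays, and those against controls share the controls, so their values stand side by side and do not back each other.

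Kit read 8.27, 8.13, 8.20, 8.32 and 7.86 in control crypts, 8.10, 8.26, 8.07, 7.93 and 7.93 in Rb KO crypts and 8.26, 8.26, 8.15, 8.39 and 8.29 in DKO crypts. These ranges overlap, and the difference of DKO from Rb KO was 0.21 (95% interval 0.03 to 0.39, limma, adjusted p = 0.124, unadjusted p = 0.025). Hdc, which decarboxylates histidine to histamine, differed by 0.21 (95% interval 0.02 to 0.39, limma, adjusted p = 0.14, unadjusted p = 0.0302). Kit and Hdc were thus under 0.05 unadjusted, in the direction of the 5 genes that rose. Besides Hdc, Cma1 differed by 0.15 (adjusted p = 0.42) and Tpsb2 by 0.14 (0.239). The upper ends of the intervals of Hdc, Cma1 and Tpsb2, at 0.39, 0.39 and 0.29, lie below the differences measured for the 5 genes that rose. How fully these probe sets register a change was not tested. The other probe set of Kit read 6.66 to 7.28 in DKO and 6.76 to 7.21 in Rb KO crypts, and those of Tpsb2 and Hdc lay below the level filter.

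The effect of genotype was then compared between crypts and villi in a fit over all 30 arrays. None of the 9 genes differed between tissues in the effect of Rb deletion (13.7% of all genes called; no gene of the 9 at an unadjusted p under 0.05), nor in DKO minus control (7% called; none under 0.05 unadjusted). For DKO minus Rb KO, the rise in crypts exceeded that in villi by 1.46 for Mcpt1, 1.54 for Mcpt2, 1.03 for Mcpt4, 0.85 for Cpa3 and 0.73 for Ms4a2. None of these was called (limma, adjusted p = 0.212, 0.156, 0.0644, 0.16 and 0.132; 3.4% of all genes called). These 5 were the genes of the 9 under 0.05 unadjusted, a rule at which the share of all genes was not counted. Villus and crypt arrays that share genotype and number were paired as 1 animal, and with the animal as a random block 1 gene was called, Mcpt4 at 1.03 (adjusted p = 0.0156). Across the 15 pairs so formed, villus and crypt deviations from the group means correlated with r = 0.66 for Mcpt4, 0.37 for Mcpt1, 0.38 for Mcpt2, 0.16 for Ms4a2 and 0.09 for Cpa3. The r was 0.69 for Tpsb2, 0.46 for Kit, 0.41 for Hdc, 0.21 for Cma1 and -0.07 for Fcer1a, so it was not particular to the genes that moved together.

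Whether the proteases changed more than another mast cell transcript was examined as a log2 ratio on each array. Such a ratio cancels a change only where the readings of both genes register it at the same log2 size. The log2 ratio of Mcpt1 over Cpa3 was, in villi, 2.94 ± 0.39 (SD, n = 5) for controls, 2.00 ± 0.29 for Rb KO and 2.98 ± 0.73 for DKO arrays. It was lower in Rb KO than in control villi by 0.94, with no overlap (exact permutation test, two-sided, p = 0.00794, the smallest that 5 against 5 arrays can give; adjusted p = 0.0476 over 18 such tests). In crypts it was 3.42 ± 0.64 in controls, 2.08 ± 0.41 in Rb KO and 3.67 ± 0.18 in DKO. DKO exceeded Rb KO crypts by 1.59 (exact permutation test, adjusted p = 0.0476), and the difference of Rb KO from control crypts, -1.34, did not pass (exact permutation test, adjusted p = 0.0816).

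Mcpt2 over Cpa3 gave the same picture in crypts, with DKO 1.36 above Rb KO (exact permutation test, adjusted p = 0.0476), and in villi it did not pass. Mcpt4 over Cpa3 lay between -0.31 and -0.09 in all 6 group means, and its 6 comparisons had adjusted p from 0.714 to 0.899 (exact permutation tests). Where a ratio passed, Mcpt1 or Mcpt2 thus differed by more log2 units than Cpa3. Mcpt4 over Cpa3 passed in no comparison. Cpa3 and Mcpt4 read 5.55 to 6.62 in Rb KO arrays, not far above the level filter of 5.33, and the part of low signal in the ratios was not tested. With 1 Rb KO array left out, the 3 passing ratios kept their direction and none passed (adjusted p from 0.0714 to 0.0952). Without control 1, Mcpt1 over Cpa3 in crypts was -1.61 and Mcpt2 over Cpa3 was -1.35 in crypts and -0.70 in villi for Rb KO minus control, and these 3 passed (exact permutation tests, adjusted p = 0.0286, 0.0286 and 0.0476). Without DKO 1, Mcpt1 over Cpa3 was 1.22 higher in DKO than in Rb KO villi (exact permutation test, adjusted p = 0.0357).

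**Figure D3:**
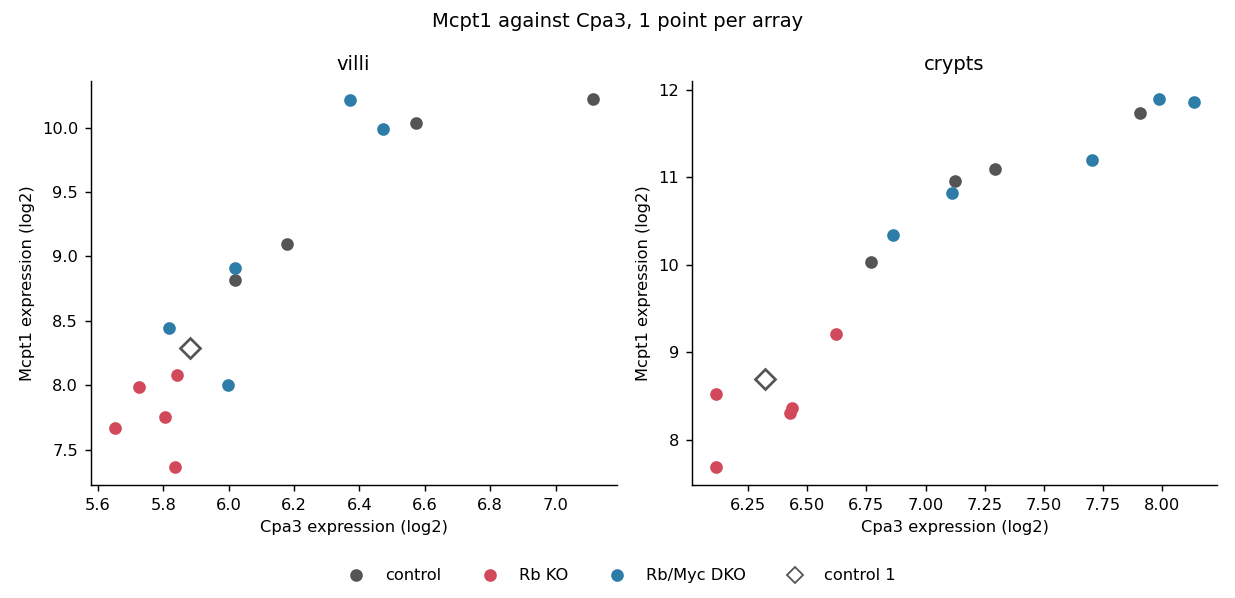
Mcpt1 against Cpa3 in log2 expression, 1 point for each array, in villi (left) and crypts (right), coloured by genotype with control 1 as an open diamond. The arrays lie along 1 rising band in each tissue, with r = 0.89 over 15 villus arrays and 0.95 over 15 crypt arrays, and Rb KO and control 1 lie at its low end in crypts.

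Among 14547 other tested genes, those most like Mcpt1 were its own partners. By the lower of the Pearson r over the 15 villus arrays and the r over the 15 crypt arrays, Mcpt2 ranked first (0.98), followed by Mcpt4 (0.89), Cpa3 (0.89) and Ms4a2 (0.88). The genes most like Cpa3 were Ms4a2 (0.92), Mcpt1 (0.89), Mcpt2 (0.88) and Mcpt4 (0.75). Part of this is the genotype pattern they share, so r was also computed on deviations from the group means. Within groups, Mcpt1 and Mcpt2 correlated at 0.97 in villi and 0.99 in crypts, Mcpt1 and Cpa3 at 0.83 and 0.91, and Mcpt1 and Ms4a2 at 0.89 in both. These 5 transcripts therefore varied together between arrays of 1 genotype too. All are descriptions over the 15 arrays of 1 tissue, and on each array the genes share its genotype and its preparation.

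The remaining tested genes of the set ranked below these partners by the lower of both r values. Kit had a lower r of 0.35 with Mcpt1 (rank 993 of 14547), and within groups its r was -0.01 in villi and -0.24 in crypts. Cma1, Hdc and Tpsb2 had ranks from 5127 to 7367 with Mcpt1, set by their r in villi of -0.06, -0.12 and -0.20. In crypts Cma1 had r = 0.48 with Mcpt1 and 0.60 with Cpa3 (0.40 and 0.56 within groups), and Tpsb2 had 0.43 with Mcpt1 and 0.52 with Cpa3 (0.07 and 0.28 within groups). Fcer1a, which was not ranked, had r = 0.69 in villi and 0.78 in crypts with Mcpt1, and 0.65 and 0.70 within groups. The proteases' array pattern was thus shared by the alpha and beta chains of the IgE receptor. It was not seen in Kit and Hdc, nor in the villus values of Cma1 and Tpsb2, whose crypt values followed it in part.

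The 5 genes outside the set that were most like Mcpt1 were Nnt (lower r 0.82), Tcaf2 (0.81), Hddc3 (0.81), Sccpdh (0.78) and Gdpd5 (0.78). Nnt encodes a mitochondrial transhydrogenase and is known for a deletion that the C57BL/6J strain carries. Nnt read 8.54, 9.36, 9.83, 10.15 and 9.71 in control villi, 8.32, 8.01, 8.21, 8.55 and 8.64 in those of Rb KO animals and 9.24 to 9.80 in those of DKO animals. In crypts it read 9.93, 10.41, 10.92, 11.16 and 10.79 in controls, 9.63 to 9.80 in the Rb KO arrays and 10.44 to 11.11 in the DKO arrays. Control 1 was the lowest control in both tissues, as it was for Mcpt1, Mcpt2 and Cpa3. Within groups, Nnt and Mcpt1 correlated at 0.62 in villi and 0.39 in crypts.

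Hddc3 split the arrays into 2 classes with no values between them. It read 6.09 in control villus 1 and 8.74 to 9.53 in the 4 other control villi, 5.95 to 6.22 in the Rb KO arrays and 9.0 to 9.91 in the DKO arrays. In crypts it read 6.93 in control 1, 9.46 to 9.96 in the other controls, 6.85 to 7.19 in the Rb KO arrays and 9.70 to 10.52 in the DKO arrays. Trim30d, an interferon-inducible gene, had the reverse split in crypts, at 10.17 in control 1, 4.51 to 5.18 in the other controls, 9.71 to 10.42 in the Rb KO arrays and 4.36 to 4.88 in the DKO arrays. Mcpt1, Mcpt2, Mcpt4, Cpa3 and Ms4a2 in crypts divided at the same place: control 1 and the 5 Rb KO arrays lay below the other controls and all DKO arrays. Strain background was not given in the labels, and its part in the mast cell gene differences cannot be told apart from that of the Rb and Myc deletions.

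**Figure D4:**
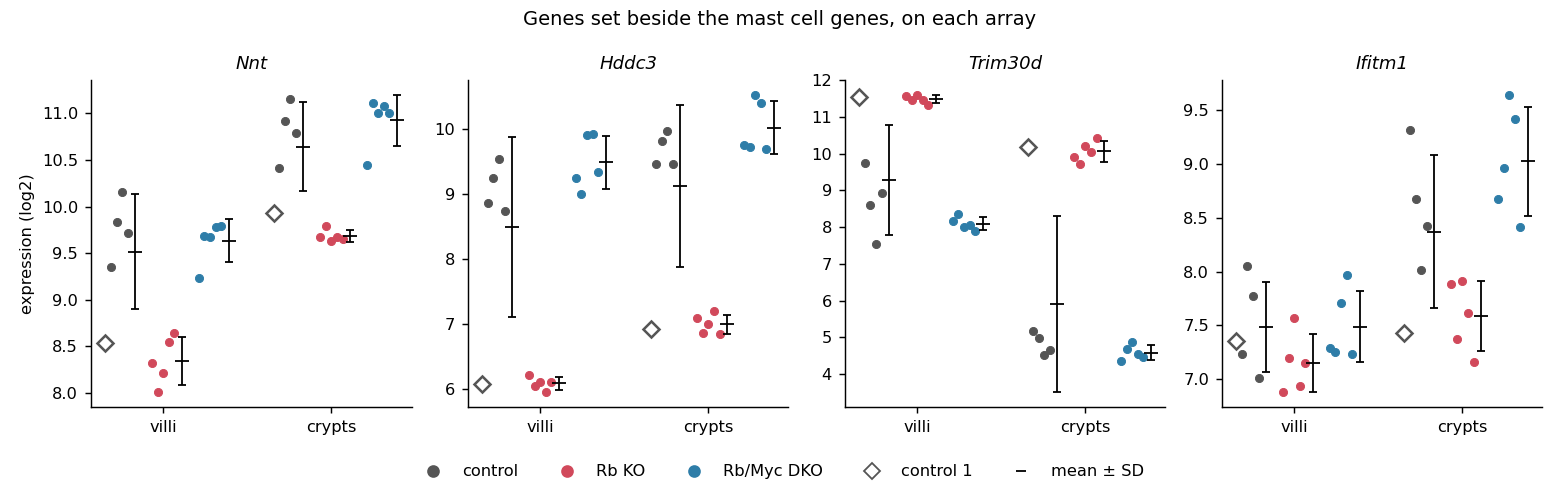
Log2 expression of Nnt, Hddc3, Trim30d and Ifitm1 on each of the 30 arrays, by genotype, in villi and crypts, with the mean and SD of each group of 5 and control 1 as an open diamond. Control 1 lies with the Rb KO arrays for Hddc3 and Trim30d in both tissues, at 6.09 and 11.54 in villi.

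Of genes outside the set, Ifitm1 was the most like Cpa3, followed by Nnt, Tcaf2, Slit2 and 3110009E18Rik. Ifitm1, an interferon-inducible membrane protein, read 7.43, 9.32, 8.67, 8.01 and 8.42 in control crypts, 7.88, 7.37, 7.91, 7.61 and 7.16 in Rb KO crypts and 8.67, 8.97, 9.65, 9.42 and 8.41 in DKO crypts. It was 1.44 higher in DKO than in Rb KO crypts (SE 0.30, limma, adjusted p = 0.00511), with every DKO array above every Rb KO array. Within groups its r with Mcpt1 was 0.72 in villi and 0.93 in crypts, above that of Nnt and Hddc3.

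Other protease genes of mast cells and related cells did not move with the 5. In the list of the chymase locus, 7 of 16 entries were tested and 3 were called in Rb KO villi, 2 in Rb KO crypts and 3 in DKO against Rb KO crypts, all of them among Mcpt1, Mcpt2 and Mcpt4, where 30.5%, 10.3% and 12.4% of all genes were called. Mcpt8, a basophil protease of the same cluster, read 5.59 to 5.89 in Rb KO crypts and 5.68 to 6.03 in DKO crypts, and was not called (limma, adjusted p = 0.352). Of 4 tested entries of the tryptase locus, Tpsg1 alone was called: it rose by 0.18 from control to Rb KO crypts (adjusted p = 0.0435) and fell by 0.25 from Rb KO to DKO crypts (0.00678), opposite to the chymases.

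Of the granule and mediator list, 11 genes were tested, and in Rb KO villi 3 were lower and none higher, a share near the 30.5% of all genes called there. Ltc4s, which makes leukotriene C4, fell by 0.63 (limma, adjusted p = 0.000521), Ndst2, a heparin sulfotransferase, fell by 0.40 (0.000657), and Hpgds, a prostaglandin D synthase, fell by 0.25 (0.0367). In DKO against Rb KO villi, Ltc4s rose by 0.54 (0.011) and Hpgds by 0.32 (0.0345). In crypts none of the 11 was called between Rb KO and control or between DKO and Rb KO, and Tph1 was 0.54 lower in DKO than in control crypts (0.01).

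The IgE receptor signalling list had 12 tested genes, of which 5 were lower and 1 higher in Rb KO than in control villi, and 6 were higher and none lower in DKO than in Rb KO crypts. Of all genes, 15.8% were called lower in the first comparison (30.5% either way) and 5.17% higher in the second. Fyn, a kinase of the receptor that T cells also use, fell by 0.75 in Rb KO villi (limma, adjusted p = 0.000252) and was 0.50 higher in DKO than in Rb KO crypts (0.00753). Syk, the kinase next in line, rose by 0.64 in Rb KO villi (0.000395) and was 0.37 higher in DKO than in Rb KO crypts (0.00366). In the identity and receptor list of 9 tested genes, Itgb7, an integrin chain for homing to the gut shared with T cells, fell by 0.50 in Rb KO villi (0.00023) and was 0.38 higher in DKO than in Rb KO villi (0.0113). Enpp3, which enterocytes also express, rose by 1.71 in Rb KO crypts (0.000269) and fell by 1.46 from Rb KO to DKO crypts (0.00088). Fcer1g, the shared signalling chain, was called once, 0.42 higher in DKO than in control crypts (0.042).

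Genes for growth factors of mast cells and for type 2 signals were examined in 14 tested members. Kitl, the ligand of Kit, was 0.58 higher in Rb KO than in control villi (limma, adjusted p = 0.00662), where Mcpt1 was lower, and in crypts it differed between DKO and Rb KO by 0.11 (0.364). Tgfbr2, a receptor for TGF-beta, which induces Mcpt1 in cultured mast cells, was 1.58 higher in DKO than in Rb KO crypts (6.18e-06) and 0.90 higher in DKO than in Rb KO villi (0.000374). It read 8.08 to 8.52 in Rb KO crypts, 8.09 to 8.87 in control crypts and 9.57 to 10.12 in DKO crypts, so its controls stood with Rb KO. Tgfb1 rose by 0.51 in Rb KO crypts (0.00823), and Tgfbr1 rose by 0.35 in Rb KO villi (0.009).

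Of 11 tested genes of the epithelial response to type 2 cytokines, 2 were lower in Rb KO than in control crypts and 3 were higher in DKO than in Rb KO crypts, against 2.97% and 5.17% of all genes. Mptx1, a pentraxin of Paneth cells, fell by 0.93 (limma, adjusted p = 0.00361) and rose by 0.94 from Rb KO to DKO (0.00314). Ang4, an antimicrobial ribonuclease, fell by 0.40 (0.037) and rose by 0.57 (0.00418). Itln1, an intelectin, was 0.32 higher in DKO than in Rb KO crypts (0.00547). Retnlb, a goblet cell gene, was 5.33 higher in DKO than in Rb KO crypts with SE 1.92, which did not pass (0.0831).

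Markers of lymphocytes moved in the direction of the mast cell genes in villi. In crypts 2 did so in DKO against Rb KO, and none was called lower in Rb KO against control. Of 14 tested markers of T cells and intraepithelial lymphocytes, 10 were lower and none higher in Rb KO than in control villi, with a median of -0.53, and 7 were higher in DKO than in Rb KO villi, against 15.8% and 5.9% of all genes. Their mean log2 level on an array was 9.89 to 10.49 in control villi, 9.39 to 9.98 in those of Rb KO and 10.13 to 10.42 in those of DKO animals, and 7.02 to 7.39, 7.06 to 7.77 and 7.41 to 7.75 in the crypts of these groups. Itgae, the integrin of intraepithelial lymphocytes, fell by 0.80 in Rb KO villi (limma, adjusted p = 0.000581) and Ptprc, a marker of all leukocytes, fell by 0.62 (0.00173). In crypts 1 of the 14 was higher and none lower in Rb KO than in control, where 10.3% of all genes were called and 2.97% were called lower. In DKO against Rb KO crypts 2 were higher, where 5.17% of all genes were called higher. In DKO against control crypts 5 were higher, where 11% of all genes were called higher. Itgae was 0.71 higher in DKO than in Rb KO crypts (0.000618), and Ptprc was 0.84 higher, which did not pass (0.0788). Ptprc in control crypts was highest in control 1, at 8.38, where Mcpt1 was lowest. The part of leukocyte content in the differences of the mast cell genes was not tested.

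Lists of the other cell types gave few calls in Rb KO against control crypts, and in villi the stomach and epithelial lists were called at 3 of 8 genes each, near the 30.5% of all genes. Of 3 tested basophil markers only Ms4a2, itself 1 of the 10 genes, was called, and of 3 endothelial markers only Lyve1 was, 0.37 higher in DKO than in control crypts (limma, adjusted p = 0.042). Of 6 B cell and plasma cell markers, Xbp1 fell by 0.20 in Rb KO villi (0.0428), and Cd79b was 0.83 higher in DKO than in Rb KO crypts (0.0186). Of 8 tested stomach and enterochromaffin-like cell genes, such cells being another source of Hdc, 3 were lower in Rb KO villi, among them Ghrl by 0.88 (0.0112) and Chga by 0.56 (0.00844), and Hdc was not called. Of 8 epithelial markers, 2 were higher and 1 lower in Rb KO villi and none was called in Rb KO against control crypts. None of the 11 tested macrophage and dendritic cell markers, 9 smooth muscle and fibroblast markers, 6 neutrophil markers or 2 eosinophil markers was called in Rb KO against control in either tissue. The mean level of the smooth muscle and fibroblast markers was 7.36 to 7.86 in control crypts, 7.0 to 8.31 in Rb KO crypts and 7.16 to 7.76 in DKO crypts. Of 3 tested markers of interstitial cells of Cajal, which include Kit, Ano1 was called: it was 0.28 higher in Rb KO than in control crypts (limma, adjusted p = 0.0484) and 0.43 lower in DKO than in Rb KO crypts (0.00426), opposite to the mast cell genes. Ano1 was also 0.41 lower in DKO than in Rb KO villi (0.0149), and Edn3, the remaining marker of this list, was 0.40 higher in DKO than in control crypts (0.0229). Of 9 crypt markers used as a score of how much crypt a preparation held, 3 were higher in DKO than in Rb KO crypts. Of all genes, 5.17% were called higher there. With that score as a covariate, the 5 genes stayed called in this comparison, with Mcpt1 at 3.02 (0.00644).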

How the data were processed

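The authors deposited expression on a log2 scale, from 2.64 to 15.21, for 45101 probe sets and 30 arrays; the normalization and software that the authors used are not given in the sources used here. Array medians of 6.28 to 6.34 in villi and 6.67 to 6.73 in crypts, with at least 285 identical values between arrays of 1 tissue and at most 1 between tissues, led to the tissues being treated as normalized apart. Probe sets were named through the platform annotation: 34958 had 1 symbol, 932 several and 9211 none, and only those with 1 were used. Per gene the probe set of highest mean was kept, and genes under the 30th percentile of all probe sets (5.33) were left out, which left 14548.

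Each tissue was fitted in limma 3.58.1 (R 4.3.3) over its 3 genotypes, with Benjamini-Hochberg adjustment over all 14548 genes and a threshold of 0.05. Differences of effect between tissues were fitted over all 30 arrays. Log2 ratios were tested with exact two-sided permutation tests. Sequences and figures were handled in Python 3.11.15 with pandas 2.3.3, Biopython 1.88 and matplotlib 3.10.9. The number of arrays limits the precision.

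The 10 genes and all gene lists were chosen with earlier results of these data known. Named were all 10 genes, at most 4 called genes of smallest p from each other list and comparison, the 5 genes most like Mcpt1 and the 5 most like Cpa3, and Rb1 and Myc. Hddc3, Trim30d, Nnt and Ifitm1 are given by array, and Trim30d, Retnlb, Mcpt8 and genes given without a call were named after their values were seen.

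Villi and crypts of 1 genotype and number correlated in their deviations from the group means with r from 0.246 to 0.560 (15 of 15 pairs over 0.1), and were paired. Same numbers of different genotypes were over 0.1 in 0 to 3 of 5 pairs, and were not. Control and DKO arrays of numbers 2, 3 and 4 reached r of 0.31, 0.28 and 0.42 in villi and 0.40, 0.31 and 0.26 in crypts. Numbers 1 and 5 of these genotypes had r of -0.18 and -0.20 in villi and -0.10 and -0.17 in crypts. Tested on simulated data, 1.5-fold changes were recovered in 76% of genes for Rb KO against control villi (12 false calls), 92% for crypts (13) and 76% for the difference between tissues (17), with 14548 genes each.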

Additional observations from a re-analysis of the deposited data

Results flagged for a closer look

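Cma1 in control crypts held 1 array apart from the others: control 5 read 6.21, and the next highest array read 6.05, a gap of 0.715 of the range of the group, against a critical value of 0.71 for 5 samples. It was the only such array among 60 combinations of a gene and a group, and chance alone marks about 1 in 20 groups.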

How the results depend on the processing

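No difference or ratio past its threshold changed sign under the alternatives run. Some that were not called did: with 1 array left out, Mcpt1 over Cpa3 in DKO minus control villi ran from -0.18 to 0.28 and Mcpt4 over Cpa3 in DKO minus control crypts from -0.05 to 0.08. Of the 9 tested genes, 5 were called in Rb KO against control villi, and 3 with the filter at the 50th percentile, 3 with all 30 arrays in 1 fit, 1 without Rb KO 4 and 5, and 2 to 6 with 1 array left out. In DKO against Rb KO villi the count was 0, and 1 with only both groups in the fit, 1 with a covariate for crypt markers and 0 to 1 with 1 array left out. In Rb KO against control crypts it was 2, and 4 with all 30 arrays, 4 with sex as a covariate, 0 without Rb KO 4 and 5, and 1 to 5 with 1 array left out. In DKO against Rb KO crypts it was 5 in all of these but the stricter filter, which left 3 because fewer of the genes pass it, and the set without Rb KO 4 and 5, which left 4. In DKO against control crypts it was 0 to 1 with 1 array left out. Beyond fewer genes or arrays, the cause of these changes was not tested.

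The numbers were not taken to pair genotypes in the main fits. With the replicate number as a block, 2 genes were called in DKO against Rb KO villi, Mcpt1 (limma, adjusted p = 0.027) and Mcpt2 (0.0447). The counts of the other 5 comparisons within a tissue did not change. With the animal as replicate block, 1 gene, Mcpt4, was called for the difference between tissues in DKO minus Rb KO. Paired by number, the log2 ratios of Mcpt1 over Cpa3 (-0.94 for Rb KO minus control villi, 1.59 for DKO minus Rb KO crypts) and of Mcpt2 over Cpa3 (1.36 there) cannot pass, since 32 sign changes give a smallest exact p of 0.0625.

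Without Rb KO 4 and 5 these ratios were -0.87 (exact permutation test, adjusted p = 0.201), 1.37 (0.161) and 1.20 (0.161). With both arrays left out, the smallest p that the exact test can give is larger. The loss of these calls therefore does not separate a weaker ratio from fewer arrays. With 1 array left out these ratios ran from -1.07 to -0.81, from 1.46 to 1.71 and from 1.24 to 1.51. The ratios that did not pass ran from -1.61 to -1.22 (Mcpt1 over Cpa3) and -1.35 to -0.98 (Mcpt2) in Rb KO against control crypts, from -0.70 to -0.45 (Mcpt2) in Rb KO against control villi and from 0.76 to 1.22 (Mcpt1) in DKO against Rb KO villi.

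Over all genes, calls moved by more than 1.5 times in several settings. With all 30 arrays in the fit, DKO against Rb KO villi had 2054 calls and not 1139, Rb KO against control crypts 947 and not 1498, and DKO against Rb KO crypts 1171 and not 1802. The crypt marker score gave 2549 in DKO against Rb KO villi, and leaving out Rb KO 4 and 5 gave 554 there, 805 in Rb KO against control crypts and 1135 in DKO against Rb KO crypts.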
